A study of Mus musculus with 24 samples.

Results

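Negative-feedback genes of mitogen-activated protein kinase (MAPK) signaling were examined in optogenetic muscle tissues, in which light pulses trigger contraction. The members were 10 of the 56941 genes in the tables, chosen by name with earlier results of these data known. They were 6 dual-specificity phosphatases (Dusp1, Dusp4, Dusp5, Dusp6, Dusp8, Dusp10), 3 Sprouty genes (Spry1, Spry2, Spry4), and the pseudokinase gene Trib1. Trib1 was picked because its level fell at 4 and 10 Hz in these libraries, so it is described without a test. It is left out of every count of genes called, not overlapping, or split between libraries, which covers the other 9 genes. The checks of spread, outlying libraries, counting error, and motifs cover all 10. All tissues were C2C12 mouse myoblasts carrying ChR2::tdTomato, a blue light-gated channel fused to a red fluorescent protein, differentiated for about 2 weeks on fibrin hydrogels in medium with horse serum and IGF-1, a growth factor that itself acts through a receptor tyrosine kinase. Tissues received light for 30 min each day at 1, 4, or 10 Hz, and control tissues received none, with 6 libraries per condition and 24 in all. The control arm had no light, so light itself and contraction cannot be told apart, and the study saw spontaneous twitching in all conditions, so control tissues were not at rest. All tissues came from 1 transgenic line, and the sources used here do not give the time from the last light session to extraction.

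Growth factors and contraction activate extracellular signal-regulated kinase (ERK), which carries signals through Ras, Raf, and MEK to transcription factors in the nucleus. ERK output induces its own inhibitors, so transcripts of these genes are often read together with early genes such as Fos and Egr1. Dusp1, Dusp4, and Dusp5 encode inducible nuclear MAPK phosphatases, of which Dusp5 acts on ERK alone and Dusp1 also acts on p38 and JNK. Dusp6 encodes the cytoplasmic ERK phosphatase, whereas Dusp8 and Dusp10 encode phosphatases that act mainly on JNK and p38. Sprouty proteins act upstream, between growth factor receptors and Ras-Raf, and Trib1 encodes a scaffold that brings C/EBP transcription factors to the COP1 ubiquitin ligase and binds MEK1. ERK activity itself was not measured here, and in bulk RNA fewer cells of a type and less RNA per cell cannot be told apart.

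All 10 genes passed the filter on low counts, with 17 to 2182 counts per library at total counts of 4.09 to 15.2 M (mega). By length-scaled abundance (TPM) in control, Dusp4 (87.6 ± 8.33 TPM, SD, n = 6) and Dusp1 (76.5 ± 9.11 TPM) stood highest. Dusp6 (42.0 ± 3.92 TPM), Dusp10 (39.0 ± 2.79 TPM), Dusp5 (31.3 ± 2.20 TPM), Spry2 (30.0 ± 3.51 TPM), and Trib1 (22.2 ± 4.42 TPM) followed. Dusp8 (10.7 ± 1.5 TPM), Spry1 (3.20 ± 2.18 TPM), and Spry4 (2.54 ± 0.950 TPM) were lowest, and the last pair rests on few counts, down to 17 in a library. In the GENCODE M39 annotation of GRCm39, Dusp1 lies at chr17:26724564-26781102, Dusp4 at chr8:35274442-35287048, Dusp5 at chr19:53517532-53530862, Dusp6 at chr10:99086564-99103361, and Dusp8 at chr7:141633226-141649580. Dusp10 lies at chr1:183745499-183807842, Spry1 at chr3:37693897-37698755, Spry2 at chr14:106128766-106136446, Spry4 at chr18:38719300-38736025, and Trib1 at chr15:59520147-59528948. All 10 are protein-coding genes, and the values below are for whole genes, not isoforms.

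Libraries differed between conditions in ways that stand beside the results. The share of small RNAs without a poly(A) tail was 150 ± 25.7 CPM (counts per M of the library total) in control (SD, n = 6), 31.9 ± 20.9 at 1 Hz, 30.6 ± 11.5 at 4 Hz, and 145 ± 97.9 at 10 Hz. All 1 and 4 Hz libraries lay below all control libraries (2-sided exact permutation p = 0.00216 for each, the smallest that 6 against 6 allow, Benjamini-Hochberg adjusted p = 0.0260 over 60 comparisons). The labels say that low-input samples were ribodepleted rather than poly(A)-selected and do not say which. The summed level of 16 muscle fiber markers was also higher at 1 Hz (1.61-fold) and 4 Hz (1.72-fold) than in control, with no overlap. In each, 13 of the 16 were called higher, beside 9.34% (1 Hz) and 10.5% (4 Hz) of all genes. The 12 myoblast or reserve cell markers summed to a level 1.32-fold higher at 1 Hz, with no overlap with control, although only Itga7 (271 TPM in control and 389 at 1 Hz, most of the rise) and Pax7 of the 12 were called, both higher, and Myf5, Vcam1, Id1, and Id3 had lower means. Emcn, an endothelial marker, was at 0 in all libraries, the other endothelial and adipocyte markers stayed at or below 1.76 TPM in every library, and of the macrophage and nerve lists only Cd68 and Tubb3 were well detected. Between 4 and 1 Hz the small RNA share (0.958-fold, exact permutation p = 0.887) and the muscle fiber sum (1.07-fold, exact permutation p = 0.472) overlapped. The summed proliferating cell markers were 1.32-fold higher at 4 Hz than at 1 Hz (exact permutation p = 0.0433, adjusted p = 0.113), and the mitochondrial share of counts was 1.58-fold higher (exact permutation p = 0.0758, adjusted p = 0.168). The mitochondrial share was 1.78-fold and the small RNA share 4.55-fold higher at 10 Hz than at 1 Hz (exact permutation adjusted p = 0.0260 for each). At 10 Hz against 4 Hz the small RNA share was 4.74-fold (exact permutation adjusted p = 0.0260) and the muscle fiber sum 0.698-fold (exact permutation adjusted p = 0.0354). Total counts were 1.61-fold higher at 4 Hz than in control (exact permutation p = 0.00433, adjusted p = 0.0260). The part of these differences in the levels of the 10 genes was not tested, other than for the small RNA share.

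**Figure D1:**
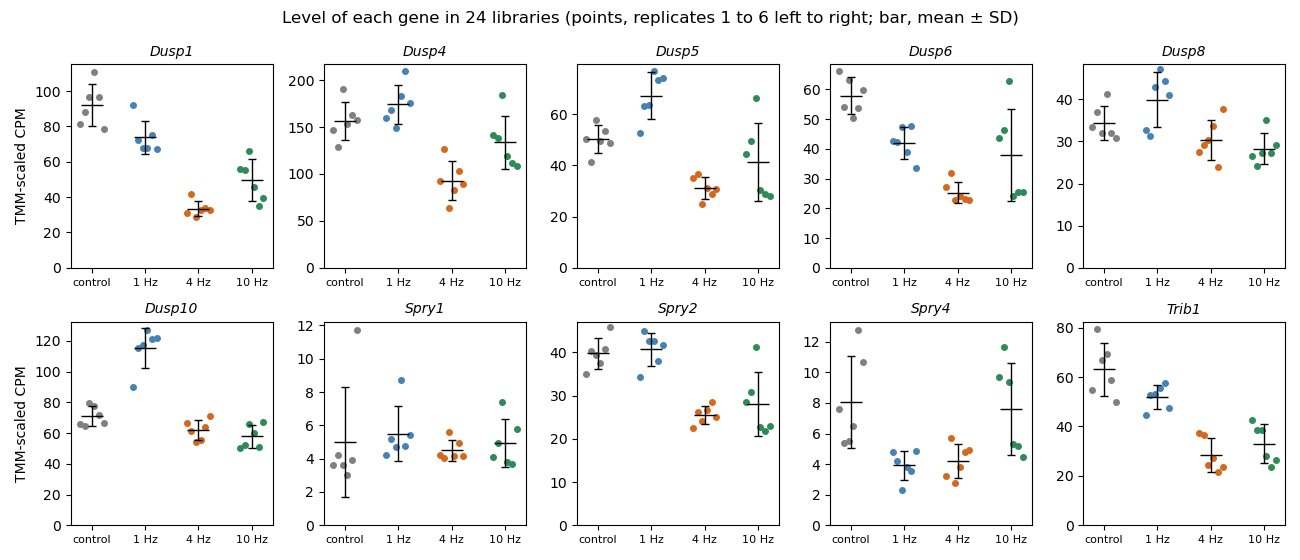
TMM-scaled CPM (vertical axes, from 0) of the 10 genes in control, 1 Hz, 4 Hz, and 10 Hz tissues, with a point per library and bars for the mean ± SD (n = 6). At 4 Hz the points of Dusp1, Dusp4, Dusp5, Dusp6, Spry2, and Trib1 lie below all control points, and at 1 Hz those of Dusp10 lie above them.

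Of the nuclear phosphatases, Dusp1 showed the lowest levels at 4 Hz relative to control. As CPM on TMM-scaled library sizes, its lowest, median, and highest libraries were 78.7, 92.3, and 111 in control, 67.2, 70.3, and 92.1 at 1 Hz, 28.9, 32.6, and 41.7 at 4 Hz, and 35.0, 50.6, and 66.2 at 10 Hz. All libraries at 4 and 10 Hz were below every control and every 1 Hz library, while 1 Hz overlapped control. A gene was called at a Benjamini-Hochberg adjusted p below 0.05 over the 13318 genes tested with an absolute log2 fold change above 0.5. Dusp1 fell at 4 Hz (log2 fold change -1.46 ± 0.13, SE, edgeR adjusted p = 2.53e-08) and at 10 Hz (-0.89 ± 0.12, edgeR adjusted p = 0.000311) against control. At 1 Hz it was lower by less than the threshold (-0.33 ± 0.12, edgeR adjusted p = 0.0403). All 3 neighbors in the order control, 1 Hz, 10 Hz, 4 Hz differed at an adjusted p below 0.05.

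Dusp4, an ERK and JNK phosphatase, was lowest at 4 Hz. Its lowest, median, and highest libraries were 129, 155, and 191 CPM in control, 149, 172, and 209 CPM at 1 Hz, 63.5, 90.7, and 127 CPM at 4 Hz, and 108, 129, and 184 CPM at 10 Hz. Only the 4 Hz libraries stood clear of control, the highest of them just below the lowest control library. Dusp4 fell at 4 Hz against control (-0.75 ± 0.14, edgeR adjusted p = 0.000110), whereas the differences at 1 Hz (0.15, 95% confidence interval -0.12 to 0.43) and 10 Hz (-0.23, interval -0.50 to 0.049) did not pass. Dusp5, the nuclear phosphatase selective for ERK, had 41.3, 50.1, and 57.7 CPM in control, 52.6, 68.4, and 76.9 CPM at 1 Hz, 24.9, 30.98, and 36.5 CPM at 4 Hz, and 28.2, 37.4, and 66.2 CPM at 10 Hz. It was thus ordered 1 Hz, control, 10 Hz, 4 Hz, in which 1 Hz and control differed (0.42 ± 0.16, edgeR adjusted p = 0.0372, below the fold threshold) and the other neighbors did not (edgeR adjusted p = 0.340 and 0.0648). Dusp5 fell at 4 Hz against control (-0.68 ± 0.16, edgeR adjusted p = 0.00151).

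Dusp6, the cytoplasmic ERK phosphatase whose transcript is often used as a readout of ERK output, was lower than control at every frequency. Its lowest, median, and highest libraries were 50.5, 57.0, and 66.2 CPM in control, 33.4, 42.5, and 47.6 CPM at 1 Hz, 22.7, 23.6, and 31.7 CPM at 4 Hz, and 24.03, 34.6, and 62.8 CPM at 10 Hz. The 1 and 4 Hz libraries all lay below control, and the 10 Hz libraries spread over nearly the whole range. Dusp6 fell at 4 Hz (-1.19 ± 0.17, edgeR adjusted p = 1.04e-05) and at 10 Hz (-0.60 ± 0.17, edgeR adjusted p = 0.0404). Its coefficient of variation was 41.1% at 10 Hz, beside 10.6% in control and 14.2% at 4 Hz. The fit shares 1 estimate of the spread between conditions, so the SE at 10 Hz does not show this. At 1 Hz the difference was under the fold threshold (-0.46 ± 0.17, edgeR adjusted p = 0.0379). The 10 Hz call was lost when any 1 of control libraries 1, 2, 3, 5, or 6 or 10 Hz libraries 4, 5, or 6 was left out (edgeR adjusted p of 0.0562 to 0.0984), while the direction stayed.

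The JNK and p38 phosphatases had other orders of level. Dusp10 had 64.7, 69.2, and 79.6 CPM (lowest, median, and highest) in control, 90.0, 119, and 127 CPM at 1 Hz, 54.1, 62.6, and 71.3 CPM at 4 Hz, and 50.4, 56.4, and 67.0 CPM at 10 Hz. Every 1 Hz library was above every library of the other conditions. Dusp10 rose at 1 Hz against control (0.70 ± 0.094, edgeR adjusted p = 8.02e-06) and was not called at 4 Hz (-0.19, edgeR adjusted p = 0.102) or 10 Hz (-0.29, edgeR adjusted p = 0.0669). Dusp8 had the narrowest range of the phosphatases, with 30.8, 32.7, and 41.2 CPM in control, 31.3, 42.0, and 47.1 CPM at 1 Hz, 23.9, 29.7, and 37.8 CPM at 4 Hz, and 24.1, 27.2, and 35.1 CPM at 10 Hz. All conditions overlapped, and in the order 1 Hz, control, 4 Hz, 10 Hz no neighbors differed at an adjusted p below 0.05.

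The Sprouty genes differed from each other. Spry2 had 35.0, 39.8, and 45.8 CPM in control, 34.3, 42.2, and 44.9 CPM at 1 Hz, 22.6, 25.6, and 28.4 CPM at 4 Hz, and 21.7, 25.8, and 41.3 CPM at 10 Hz. All 4 Hz libraries were below all control and 1 Hz libraries, and the fall at 4 Hz against control (-0.64 ± 0.12, edgeR adjusted p = 0.000173) was called. At 10 Hz Spry2 lay just under the fold threshold (-0.50 ± 0.12, edgeR adjusted p = 0.0150). Spry4 was lower at 1 Hz (2.32, 4.00, and 4.88 CPM) and 4 Hz (2.75, 4.29, and 5.73 CPM) than in control (5.37, 7.04, and 12.8 CPM). All 1 Hz libraries lay below control, 4 Hz overlapped control, and 10 Hz (4.48, 7.36, and 11.7 CPM) overlapped every other condition. Spry4 fell at 1 Hz (-1.04 ± 0.27, edgeR adjusted p = 0.00394) and 4 Hz (-0.90 ± 0.26, edgeR adjusted p = 0.00768) against control. For Spry1 all conditions overlapped between 3.01 and 11.7 CPM and no comparison passed, although the intervals were wide (1 Hz against control 0.17, -0.39 to 0.72).

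Trib1 had 50.0, 63.0, and 79.5 CPM in control, 44.7, 53.1, and 57.8 CPM at 1 Hz, 21.7, 25.7, and 37.5 CPM at 4 Hz, and 23.6, 33.4, and 42.7 CPM at 10 Hz. Every 4 and 10 Hz library was below every control and every 1 Hz library, which is the pattern it was picked for. Against control its log2 fold change was -0.29 ± 0.15 (SE) at 1 Hz, -1.15 ± 0.15 at 4 Hz, and -0.93 ± 0.15 at 10 Hz, given as a description. Among the other 9 genes, Dusp1 was nearest to Trib1 in pattern, with a root mean square difference of 0.254 in centered log2 CPM over the 24 libraries.

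The sequence just upstream of the transcription start is shown for Dusp1, Trib1, and Dusp6, which lay low at both 4 and 10 Hz. It is also shown for Dusp8, not called against control, and for Dusp5, called lower against control at 4 Hz only. Spry2, called lower at 4 Hz and just under the fold threshold at 10 Hz, is not shown, and its window held none of the motifs searched. The 250 bases before the start of the canonical GENCODE M39 transcript were read 5′ to 3′ from GRCm39 on the strand of the gene. Capitals mark the cyclic AMP response element (CRE) TGACGTCA in Dusp1, Trib1, and Dusp8 and both serum response CArG boxes, a pattern bound by serum response factor, in Dusp5, and the window of Dusp6 held none of the motifs searched.
Dusp1, chr17:26727494-26727743, minus strand: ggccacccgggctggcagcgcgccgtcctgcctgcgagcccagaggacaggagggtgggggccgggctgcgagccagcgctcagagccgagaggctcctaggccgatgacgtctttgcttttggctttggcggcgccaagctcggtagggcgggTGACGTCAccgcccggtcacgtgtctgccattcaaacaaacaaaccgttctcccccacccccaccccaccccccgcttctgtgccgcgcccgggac
Trib1, chr15:59519897-59520146, plus strand: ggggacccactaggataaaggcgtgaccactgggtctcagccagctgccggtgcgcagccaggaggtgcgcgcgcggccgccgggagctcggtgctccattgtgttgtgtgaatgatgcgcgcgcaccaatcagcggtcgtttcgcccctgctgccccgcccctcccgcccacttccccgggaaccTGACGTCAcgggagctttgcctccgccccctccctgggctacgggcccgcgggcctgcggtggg
Dusp6, chr10:99098818-99099067, plus strand: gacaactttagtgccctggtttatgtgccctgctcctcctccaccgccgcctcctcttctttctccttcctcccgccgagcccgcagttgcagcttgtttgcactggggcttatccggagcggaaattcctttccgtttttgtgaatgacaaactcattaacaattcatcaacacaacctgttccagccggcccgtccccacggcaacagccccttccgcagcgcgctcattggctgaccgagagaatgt
Dusp8, chr7:141649053-141649302, minus strand: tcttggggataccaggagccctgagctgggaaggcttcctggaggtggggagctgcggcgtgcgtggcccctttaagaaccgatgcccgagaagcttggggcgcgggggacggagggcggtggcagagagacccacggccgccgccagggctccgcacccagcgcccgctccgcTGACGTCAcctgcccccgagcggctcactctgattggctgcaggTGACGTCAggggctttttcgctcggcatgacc
Dusp5, chr19:53517282-53517531, plus strand: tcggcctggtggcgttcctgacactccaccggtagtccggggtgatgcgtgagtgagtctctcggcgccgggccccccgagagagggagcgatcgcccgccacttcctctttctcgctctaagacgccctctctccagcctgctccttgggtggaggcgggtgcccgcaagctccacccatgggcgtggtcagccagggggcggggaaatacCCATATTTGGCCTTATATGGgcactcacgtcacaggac

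The palindromic CRE began 96 bases before the start in Dusp1, 64 in Trib1, and 76 and 32 in Dusp8, and it occurred in 1.99% of the 13292 promoters of tested genes found. Both CArG boxes of Dusp5 lay side by side, beginning 38 and 28 bases before its start, and 1.16% of promoters held such a box on either strand. An EGR site (GCGTGGGCG, either strand, 0.805% of promoters) was found in Dusp10. The AP-1 site TGAGTCA (3.49% of promoters) and the ETS site CCGGAAGT (3.87%), searched on both strands, were in none of the 10 windows. None of these motifs overlapped another in the 10 windows. Of the genes with a CRE, Dusp1 was called lower at 4 and 10 Hz, Dusp8 was not called against control, and Trib1 was not tested. Dusp6, which held none of the motifs, was called lower at 4 and 10 Hz. A relation between motif and level was not tested. A match in this window is a description of letters, not of binding.

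**Figure D2:**
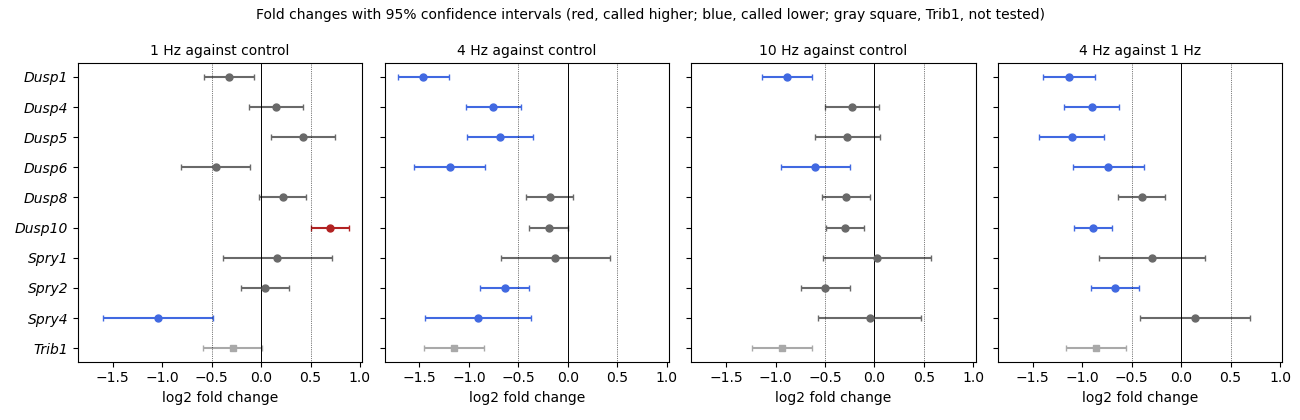
Log2 fold change (horizontal axes) of the 10 genes with 95% confidence intervals for the comparisons with control and for 4 Hz against 1 Hz, where blue points were called lower, red higher, and the gray square is Trib1, not tested. Dusp1, Dusp4, Dusp5, Dusp6, and Spry2 are blue both in 4 Hz against control and in 4 Hz against 1 Hz.

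Against control, 2 of the 9 tested genes were called at 1 Hz, beside 18.3% of all genes tested, with Dusp10 higher (9.34% of all genes) and Spry4 lower (8.99%). At 4 Hz 6 of 9 were called, all lower (Dusp1, Dusp4, Dusp5, Dusp6, Spry2, Spry4), beside 9.61% of all genes called lower, 10.5% called higher, and 20.1% called either way. Of the 6, 5 did not overlap control, beside 7.93% of all genes. At 10 Hz 2 of 9 were called lower (Dusp1, Dusp6), beside 0.623% of all genes called lower, 1.24% called higher, and 1.86% called either way. The median log2 fold change of the 9 genes was 0.15 at 1 Hz, -0.68 at 4 Hz, and -0.29 at 10 Hz, beside -0.0072, -0.014, and -0.0064 over all genes. The 3 comparisons share the control libraries, and the genes were chosen with earlier results of these data known. When the log2 small RNA share was added to the fit as a covariate, only Dusp1 remained called at 4 Hz (-1.05, edgeR adjusted p = 0.0105), none did at 1 Hz, and Dusp1 and Dusp6 did at 10 Hz. In that fit the other genes called at 4 Hz kept their sign for Dusp6 (-0.75), Dusp4 (-0.62), Spry2 (-0.49), and Dusp5 (-0.45), with edgeR adjusted p of 0.177 to 0.455, and Dusp10 at 1 Hz was at 0.38 (edgeR adjusted p = 0.423). Spry4 turned to 0.047 at 1 Hz and 0.15 at 4 Hz against control. Across all genes that edgeR fit called 1 gene at 1 Hz (1148 at an unadjusted p below 0.05, of which 2 were among the 9) and 156 at 4 Hz, and as the share and the condition move together there, they cannot be told apart at 1 and 4 Hz.

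Between 4 and 1 Hz, where the small RNA share overlapped, 6 of the 9 genes were lower at 4 Hz, beside 1.40% of all genes called lower and 3.00% called either way. They were Dusp1 (-1.13 ± 0.13), Dusp5 (-1.11 ± 0.16), Dusp4 (-0.90 ± 0.14), Dusp10 (-0.89 ± 0.093), Dusp6 (-0.73 ± 0.17), and Spry2 (-0.67 ± 0.12), with edgeR adjusted p of 9.04e-07 to 0.00700. For each of the 6 every 4 Hz library lay below every 1 Hz library, beside 3.33% of all genes with all 4 Hz libraries lower. The 6 calls were made again with the small RNA share in the fit and with any 1 library left out. Dusp8 was also lower but under the fold threshold (-0.40 ± 0.11, edgeR adjusted p = 0.0220), and Trib1 had a log2 fold change of -0.86 ± 0.15. Spry1 (-0.29, interval -0.83 to 0.24) and Spry4 (0.14, interval -0.42 to 0.70) did not pass.

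At 10 Hz against 1 Hz, Dusp10 (-0.99 ± 0.094), Dusp5 (-0.70 ± 0.16), Dusp1 (-0.56 ± 0.12), Spry2 (-0.53 ± 0.12), and Dusp8 (-0.51 ± 0.11) were lower, and Spry4 (0.99 ± 0.26) was higher, a call for 6 of 9 genes beside 17.9% of all genes (8.49% lower and 9.45% higher). All 10 Hz libraries lay below all 1 Hz libraries for 2 of these genes, Dusp10 and Dusp1, beside 7.49% of all genes. With the small RNA share in the fit the calls of Dusp1 (-0.94, edgeR adjusted p = 0.0105) and Dusp10 (-0.72, edgeR adjusted p = 0.0103) remained. The folds of Dusp5 (-0.93) and Spry2 (-0.68) were larger than without it but did not pass (edgeR adjusted p = 0.0837 for each), Dusp8 was at -0.22, and Spry4 turned to -0.017. With 1 library left out, Dusp8 came under the fold threshold without any 1 of 1 Hz libraries 3, 4, or 5 or 10 Hz libraries 1, 2, 3, or 5 (-0.46 to -0.50). Spry2 did so without 10 Hz library 4, 5, or 6 (-0.47 to -0.48), and Dusp1 without 1 Hz library 1 or 10 Hz library 5 (-0.49 and -0.48). At 10 Hz against 4 Hz, Spry4 (0.86 ± 0.26), Dusp6 (0.60 ± 0.17), Dusp1 (0.57 ± 0.13), and Dusp4 (0.53 ± 0.13) were higher, 4 of 9 genes beside 5.32% of all genes called higher and 11.0% called either way, and the groups overlapped for each. Without 10 Hz library 3 only Spry4 remained, Spry4 was lost without 10 Hz library 2 (0.71, edgeR adjusted p = 0.0580), and Dusp4 was lost without 4 Hz library 3 or 4 (0.43 and 0.49). With the small RNA share in the fit none of the 4 was called, nor was any of the 13318 genes tested (810 at an unadjusted p below 0.05 by edgeR, of which none was among the 9).

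**Figure D3:**
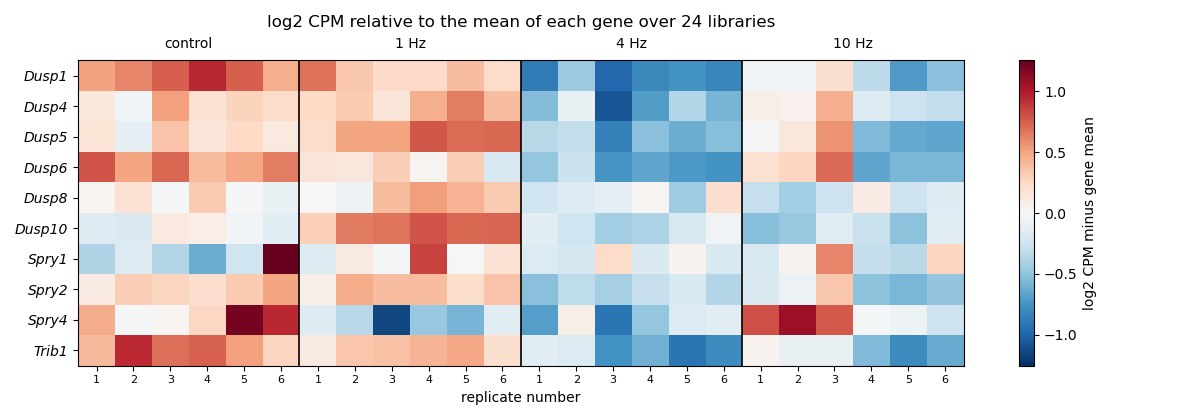
Log2 CPM of the 10 genes (rows) in the 24 libraries (columns, by replicate number within condition), relative to the mean of each gene, on a color scale from low (blue) to high (red). The 4 Hz block is blue for Dusp1, Dusp4, Dusp5, Dusp6, Spry2, and Trib1, and the 10 Hz block changes between libraries 3 and 4.

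The 10 Hz libraries were not uniform. The median coefficient of variation of the 10 genes was 25.3% at 10 Hz, beside 12.2% in control, 12.8% at 1 Hz, and 14.1% at 4 Hz. The SEs and adjusted p-values of the 10 Hz comparisons rest on a spread shared by all conditions and do not show this difference. For 6 of the 9 genes, Dusp1, Dusp4, Dusp5, Dusp6, Spry2, and Spry4, libraries 1 to 3 all lay above libraries 4 to 6, beside 9.09% of all genes. The split was chosen after the values were seen and was not tested, and Trib1 showed it too. Dusp6 was at 43.6, 46.3, and 62.8 CPM in libraries 1 to 3 and at 24.03, 25.6, and 25.6 CPM in libraries 4 to 6. Dusp5 was at 44.5, 49.5, and 66.2 CPM and then at 30.4, 28.7, and 28.2 CPM. The first 3 libraries thus held Dusp6 within or above the 1 Hz range and the last 3 held it within the 4 Hz range. Spry4 was at 9.68, 11.7, and 9.39 CPM and then at 5.32, 5.16, and 4.48 CPM. Trib1 was at 42.7, 38.6, and 38.7 CPM and then at 28.1, 23.6, and 26.5 CPM. The small RNA share was 200.4, 313, and 127 CPM of the total in libraries 1 to 3 and 112, 76.1, and 42.4 in libraries 4 to 6, in the same direction, and its part in these levels was not tested beyond the covariate fit. The replicate numbers come from the sample titles, which give no batch.

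**Figure D4:**
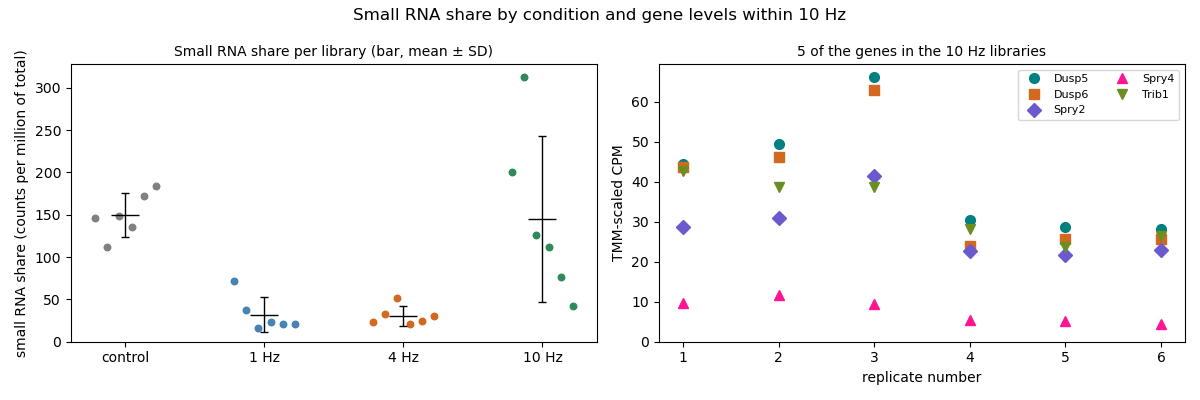
Left, small RNA share per library (counts per M of the library total) in the 4 conditions, with the mean ± SD (n = 6). Right, TMM-scaled CPM of Dusp5, Dusp6, Spry2, Spry4, and Trib1 in 10 Hz libraries 1 to 6, where libraries 1 to 3 lie above libraries 4 to 6 for each gene.

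Over all 24 libraries some members shared a nearest gene. The members themselves and predicted genes were left out of the search for neighbors. The genes nearest in pattern, by root mean square difference of centered log2 CPM among 9035 genes with a mean of at least 10 CPM, were Itgb3 (0.206), an integrin subunit, and Arid5b (0.267) for Dusp1. They were Gprc5a (0.168) and Plk2 (0.202) for Dusp4, Myc (0.228), a growth-induced transcription factor, and Gprc5a (0.233) for Dusp5, and Klf6 (0.210) and Arid5b (0.229) for Dusp6. Trib1 was nearest to Itgb3 (0.240), as Dusp1 was, and to Rnf144b (0.255). Dusp10 was nearest to Klf4 (0.152), an early transcription factor, and Adamts1 (0.192), and Dusp8 to Srebf2 (0.131) and Mapk3 (0.134), which encodes ERK1. Dusp8 varied least of the members about its own mean (root mean square 0.264, next Spry2 at 0.358), which makes small distances easier to reach. Spry2 was nearest to Rapgef2 (0.152) and Itprid2 (0.155). Spry1, near Cp (0.283) and Ccnd1 (0.288), and Spry4, near Polr2a (0.331) and Hsph1 (0.331), had no neighbor below 0.28. Between members, Dusp4 and Dusp5 were nearest to each other (0.213), closer than Myc was to Dusp5, and Dusp1 and Trib1 lay at 0.254. These distances share libraries and depth and are descriptions.

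The rest of the pathway was read from 7 lists. Of 27 ERK-responsive transcription factors and early genes, 5 were called higher and 2 lower at 1 Hz, 1 higher and 7 lower at 4 Hz, and none higher and 3 lower at 10 Hz, beside the shares of all genes above. Fos fell at 1 Hz (-1.26 ± 0.25, from 28.9 to 12.3 CPM) and most at 4 Hz (-2.26 ± 0.27, to 6.01 CPM), with no overlap with control. Fosb rose at 1 Hz (0.83 ± 0.20), Junb rose at 4 Hz (0.94 ± 0.15), and Egr1 fell at 10 Hz (-1.09 ± 0.13, from 272 to 128 CPM). Egr1 also fell at 4 Hz (-1.18 ± 0.13, to 120.3 CPM) and Fos at 10 Hz (-1.01 ± 0.25, to 14.2 CPM, overlapping control). The list median was 0.11, -0.28, and -0.13 at 1, 4, and 10 Hz. Between 4 and 1 Hz 6 of the 27 were lower and 1 higher, beside 1.40% of all genes called lower and 3.00% called either way.

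Of 15 other dual-specificity phosphatases tested, none of which is a member, 2 were higher and none lower at 1 Hz, 3 higher and 1 lower at 4 Hz, and 1 higher at 10 Hz. Called either way were 13.3%, 26.7%, and 6.67% at 1, 4, and 10 Hz, beside 18.3%, 20.1%, and 1.86% of all genes. Dusp2, an inducible nuclear phosphatase, rose at 10 Hz (0.72 ± 0.16), opposite in sign to Dusp1, Dusp29, a phosphatase of muscle, rose at 1 Hz (0.83 ± 0.33) and 4 Hz (1.14 ± 0.32), and Dusp16, a JNK phosphatase, fell at 4 Hz (-0.51 ± 0.079). Dusp29 was low (1.77 CPM in control, 3.02 CPM at 1 Hz, and 3.82 CPM at 4 Hz) and overlapped control in both comparisons. Its edgeR adjusted p at 1 Hz was 0.0492. Of 17 other Sprouty, Spred, and receptor-level inhibitors, 3 were higher and 1 lower at 1 Hz and 3 lower at 4 Hz. These were 23.5% and 17.6% of the list, near the 18.3% and 20.1% of all genes. Il17rd, an inhibitor of fibroblast growth factor signaling, rose at 1 Hz (0.99 ± 0.16), Spred3, a Sprouty-related inhibitor, fell at 1 Hz (-0.78 ± 0.21), and Dab2ip, a Ras GTPase-activating protein, fell at 4 Hz (-0.81 ± 0.11). Of 7 Tribbles genes and partners of Trib1, 3 were higher and 2 lower at 1 Hz, 2 higher and 1 lower at 4 Hz, and none was called at 10 Hz. In this short list 71.4% were called at 1 Hz and 42.9% at 4 Hz, beside 18.3% and 20.1% of all genes. Cebpb rose at 1 Hz (1.03 ± 0.19) and 4 Hz (0.79 ± 0.19), whereas Trib2, at a mean of 1.31 CPM, fell at both (-1.16 ± 0.33 and -1.44 ± 0.33).

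Upstream, 5 of 13 growth factor receptors were higher at 1 Hz and 3 at 4 Hz, none was lower, and none was called at 10 Hz. These were 38.5% and 23.1% of the list, beside 9.34% and 10.5% of all genes called higher. Pdgfrb, the platelet-derived growth factor receptor beta, had the largest fold at 1 Hz (1.38 ± 0.35) and 4 Hz (1.81 ± 0.34). Of 22 genes of the Ras to ERK cascade, 1 was called at 1 Hz, 2 at 4 Hz, and none at 10 Hz, led by the scaffold Ksr1 (0.78 ± 0.17 at 1 Hz and 0.67 ± 0.17 at 4 Hz). The called genes were 4.55% and 9.09% of the list, below the 18.3% and 20.1% of all genes. Of 14 JNK and p38 genes only Map3k1 was called against control, lower at 4 Hz (-0.53 ± 0.15). It made up 7.14% of the list, beside 20.1% of all genes called at 4 Hz. With the small RNA share in the fit, no gene of the 7 lists was called at 1 Hz and 3 were at 4 Hz.

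**Figure D5:**
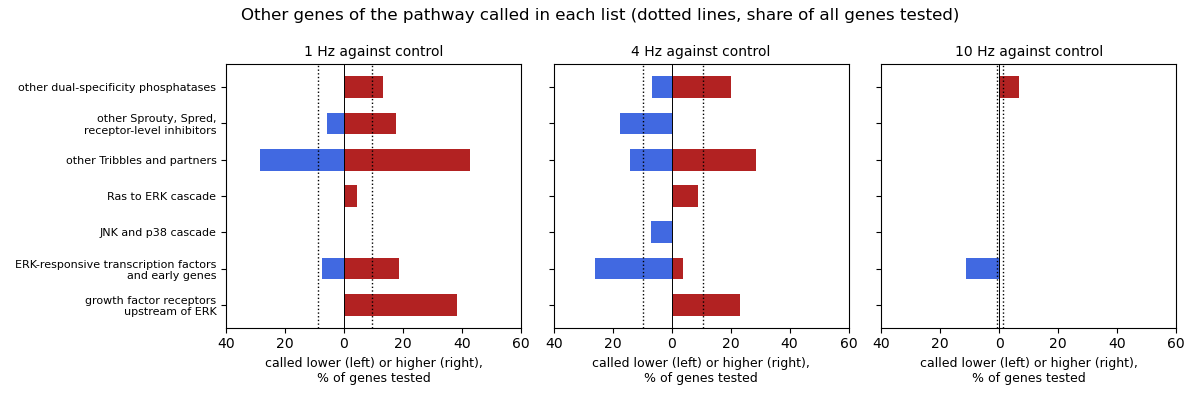
Share of the tested genes of each of the 7 pathway lists called higher (red, right) or lower (blue, left) against control at 1, 4, and 10 Hz, in percent, with dotted lines at the share of all genes. The ERK-responsive early genes extend to the left at 4 Hz (7 of 27) and the receptors to the right at 1 Hz (5 of 13).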

How the data were processed

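RNA sequencing was performed by the authors on 24 tissues, 6 per condition, grouped by sample titles, which the study calls biological replicates. Poly(A)-selected directional libraries were sequenced as 50-base pairs, with ribodepletion of low-input samples that the labels do not name. The authors processed reads with nf-core/rnaseq (STAR and Salmon) against GRCm39, with Ensembl gene models whose release number the sources used here do not give. The deposited count table holds expected counts that Salmon estimated for each gene, without normalization, of which 6.62% to 10.6% per library are fractional. The deposited TPM table was scaled by the authors to a fixed sum. Genes and lists were chosen with earlier results of these data known.

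Counts were rounded and filtered with filterByExpr (13318 genes, 99.8% of counts), TMM-scaled, and fitted in 1 edgeR 4.0.16 quasi-likelihood model (R 4.3.3, limma 3.58.1) of all 24 libraries with condition as the factor, in which the conditions share 1 estimate of the spread (common dispersion 0.0233). Benjamini-Hochberg adjustment covered all genes tested. DESeq2 1.42.0, apeglm 1.24.0, limma on log2(TPM + 1) and log2(TPM + 0.1), other scalings and filters, a replicate block, the small RNA share (69 genes with counts) as a covariate, calls by adjusted p only, and fits without each library were alternatives. On the log2(TPM + pseudocount) scale the changes of low genes are understated. Library shares used 2-sided exact permutation tests. Duplicates were sought only between libraries within a condition (60 pairs), and none was found (lowest chi-square per gene 3.18). Pairs from different conditions were not checked for this. Patterns used a prior count of 2. All 10 genes are named, with the 2 nearest in pattern for each (members and predicted genes passed over). From each pathway list, the called gene with the largest fold in each direction against control is named, at a mean of at least 1 CPM. Of 129 listed pathway genes 125 were in the tables and 115 passed the filter. Canonical starts and positions came from GENCODE M39, which may not be the release the authors used, and 99.8% of tested genes were found in it. The fits were tested on simulated data. Counting error, from 3.78% to 24.3% at the lowest count of each gene and condition, was below the coefficient of variation between libraries in 39 of 40 cases (all but Spry1 at 4 Hz). That spread includes counting error and was close to it for Spry4 at 1 Hz (24.30% beside 24.25%) and Spry2 at 4 Hz (7.90% beside 7.74%).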

Additional observations from a re-analysis of the deposited data

Results flagged for a closer look

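In each group of 6 libraries the highest and lowest CPM of each gene were compared with the gap to the nearest other library, over 40 groups, of which 4 held a library that stood apart (a gap above 0.625 of the range). Chance flags about 1 in 20 groups, or 2 of 40. Spry1 in control library 6 was at 11.7 CPM, against 3.01 to 4.19 CPM in the other control libraries. Spry1 in 1 Hz library 4 was at 8.75 CPM, against 4.24 to 5.41 CPM. In 1 Hz library 1, Dusp1 was at 92.1 CPM, above the other 1 Hz libraries (67.2 to 75.2 CPM), and Dusp10 was at 90.0 CPM, below them (115 to 127 CPM). The same library had the highest small RNA share at 1 Hz, 72.2 counts per M of the total. Without it, the Dusp1 difference of 10 Hz against 1 Hz was -0.49 in place of -0.56 and under the fold threshold, while Dusp10 remained called at 1 Hz.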

How the results depend on the processing

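The 6 falls at 4 Hz against 1 Hz and the 6 at 4 Hz against control were called in every fit that left out 1 library. Of 26 called results, all 26 were also called by DESeq2, with its size factors, without a filter, and with a replicate block. Limma on log2(TPM + 1) lost 3, or 6 without a filter, and limma on log2(TPM + 0.1) lost 1. Total count scaling, a mean of at least 5 CPM, and only the 12 libraries compared lost 2 each. Apeglm lost 1 of the 10 it covered. With the small RNA share as a covariate 11 were kept, 11 lost, and 4, all Spry4, changed sign. The number of genes called then became 0 at 1 Hz and 1 at 4 Hz against control, 2 at 10 Hz against 1 Hz, and 0 at 10 Hz against 4 Hz. Against control in that fit, the signs changed for Dusp1 (0.092), Dusp6 (0.0087), Dusp8 (-0.11), and Spry4 (0.047) at 1 Hz, Spry4 (0.15) at 4 Hz, and Spry4 (0.030) at 10 Hz. They also changed for Spry4 (-0.017) at 10 Hz against 1 Hz and for Dusp8 (0.16), Dusp10 (0.16), and Spry4 (-0.12) at 10 Hz against 4 Hz. At 10 Hz against control the count was 1 with apeglm and with only the 12 libraries compared. At 10 Hz against 4 Hz it was 2 by limma on log2(TPM + 1), with and without a filter. At 10 Hz against 1 Hz it was 4 with total count scaling, a mean of at least 5 CPM, or limma on log2(TPM + 1) without a filter. With an adjusted p alone it was 5 at 1 Hz against control.

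Near 0, signs changed for Spry2 at 1 Hz against control (total count scaling -0.043, limma at a pseudocount of 1 -0.030, with and without a filter, and of 0.1 -0.031), Spry1 at 10 Hz against control (-0.0070, -0.017, and -0.0018), and Spry4 at 4 Hz against 1 Hz (limma -0.014 and -0.027), none of them called. Their cause was not tested. Leaving out 1 library gave 2 to 3 genes at 1 Hz against control, 1 to 3 at 10 Hz against control, 3 to 6 at 10 Hz against 1 Hz (3 without 10 Hz library 5), and 1 to 4 at 10 Hz against 4 Hz (1 without 10 Hz library 3). At 10 Hz against control the count was 1 without any 1 of control libraries 2, 5, or 6 or 10 Hz libraries 4, 5, or 6. Signs changed over ranges of -0.13 to 0.45 (Spry1) and -0.20 to 0.12 (Spry4) at 10 Hz against control, -0.25 to 0.30 (Spry1) at 4 Hz against control, -0.013 to 0.59 (Spry1) at 1 Hz against control, -0.30 to 0.036 (Spry1) at 10 Hz against 1 Hz, -0.0059 to 0.23 (Spry4) at 4 Hz against 1 Hz, and -0.0063 to 0.22 (Spry1) and -0.0065 to 0.20 (Spry2) at 10 Hz against 4 Hz.

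Deviations of same-numbered libraries were mostly weakly correlated (10 of 36 correlations above 0.1, median 0.0173, range -0.18 to 0.36). As the titles give no batch, these values cannot tell whether some of these libraries shared one. The replicate block added 1 call, Spry2 at 10 Hz against control (-0.50). Depth limits Spry1 and Spry4, at 17 counts in the lowest libraries.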
